A study of Rattus norvegicus with 20 samples.

Results

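The linear trend of liver messenger RNA levels was followed over 3 diets with a rising share of a high-isoflavone soybean, in 15 of the 20 arrays of the series. The 15 arrays were chosen by their titles: 5 rats on a casein diet (dose 0), 5 on a mixture of 3 parts of protein from casein to 1 part from the high-isoflavone soybean (dose 1, called the 3:1 diet) and 5 on equal parts of each (dose 2, called the 1:1 diet). The other 5 arrays, from rats fed equal parts of casein and a conventional soybean, stayed out of the trend, and their levels are given beside it without a test. For each of 27702 non-control probe sets the slope is the change in log2 signal per step of dose.

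All rats were male Sprague-Dawley animals, 4 weeks old on arrival, kept for 5 days on a commercial diet and then fed 1 of the diets for 21 days. The casein diet held 200 g of casein per kg, and casein was a protein source in all 4 diets, so no group ate soybean protein alone. The rats used for arrays were those with an average food intake in each group, so each array is a separate rat. Which title belongs to which diet was taken from the wording of both, because no label pairs a title with a diet code. The soybean was the carrier of the isoflavones, so the share of isoflavones and the share of all other soybean constituents rose together and cannot be told apart in these 3 diets. The share of protein from casein fell as that from soybean rose, so each slope is equally a slope over falling casein. The study asked what soybeans and their isoflavone content do to liver messenger RNAs.

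The liver makes fatty acids from surplus carbohydrate and makes cholesterol from acetyl-CoA, and the enzymes of both routes are switched on together by the SREBP transcription factors, those of fatty acid synthesis also by insulin and by the carbohydrate sensor ChREBP. Soybean protein is known for lowering blood and liver lipids in rats when it replaces casein. Isoflavones such as genistein and daidzein bind estrogen receptors, beta more tightly than alpha, and reach the liver through the portal vein.

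The median log2 signal of an array was 2.46 ± 0.025 on casein, 2.48 ± 0.037 on the 3:1 and 2.51 ± 0.048 on the 1:1 diet (log2, mean ± SD, n = 5 each). Its slope was 0.0231 per step (exact permutation test over the 15 arrays, two-sided p = 0.0684, and 0.0497 without the 2 higher-floor arrays named below), and the upper quartile rose by 0.0294 (exact p = 0.0220). As a measure of RNA quality, the 3′ minus 5′ difference of beta-actin had a slope of -0.0060 per step (exact p = 0.949) and that of GAPDH -0.029 (exact p = 0.168). Casein replicate 5 and replicate 1 of the 3:1 diet had a higher signal floor (0.134 and 0.142 log10) than the other 13 arrays of the trend, whose lowest values were -0.265 or below. The summed signal of 4 hepatocyte markers lay between 3538 and 4043 linear units on all 15 arrays, so hepatocyte RNA was present on each.

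Along the rising soybean share, 579 probe sets changed, 286 upwards (1.03%) and 293 downwards (1.06%), together 2.09% of those tested (limma, adjusted p under 0.05 over all 27702). The split was 223 upwards and 378 downwards after quantile normalization, and 158 and 440 with each array centred and scaled. The casein and 1:1 rats did not overlap in 463 of the 579, and in 4.45% of all probe sets. Counted once per gene, by the probe set with the highest mean, 163 genes rose (1.21% of 13468) and 168 fell (1.25%). The median size of a called slope was 0.344 log2 per step, or 0.687 from casein to the 1:1 diet. The median slope of all probe sets was 0.0186, and 57.2% lay above 0. With 5 rats per diet the slope equals the 1:1 minus casein difference over 2 steps, so the 3:1 rats bear on the spread and on the shape, not on the size of the slope. The count was 338 without replicate 1 of each diet, 253 without both higher-floor arrays, and 333, 252, 306, 227 or 256 without casein replicate 2, 4 or 5 or replicate 2 or 4 of the 1:1 diet.

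The 3:1 diet lay between its neighbours for nearly all of these probe sets. Its mean was between those of casein and the 1:1 diet in 565 of the 579 (97.6%), against 45.1% of all probe sets, and this ordering is partly set by calling on the slope. The first step, from casein to the 3:1 diet, made up a median of 55.5% of the whole change (quartiles 43.0% and 69.0%). It was between 25% and 75% in 437 probe sets, above 75% in 102 and below 25% in 40. A straight line gives 50%. Risers had a median of 58.3% and fallers of 53.6%. Taken alone, the first step called 3 probe sets (0.0108%), those of Fabp2, Cox7b2 and Wfdc21, and the second step called 1 (0.00361%), that of Ddhd1. The first-step and second-step fits share the 3:1 rats with each other.

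**Figure D1:**
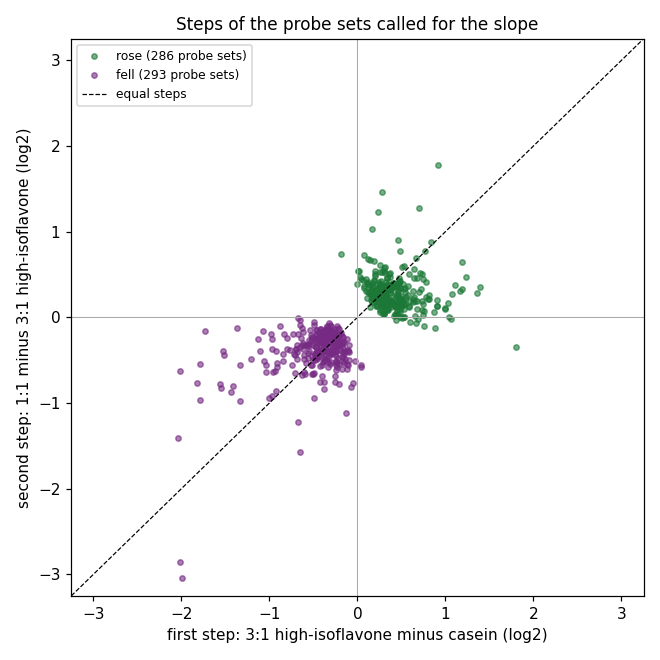
Each point is 1 of the 579 probe sets called for the slope, with the change from casein to the 3:1 diet on the x axis and the change from the 3:1 to the 1:1 diet on the y axis (log2 signal, 5 rats per diet). Most points lie in the quadrants where both steps run the same way, around the dashed line of equal steps.

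Genes of fat synthesis had the lowest median slope of the 38 lists. Of 27 measured members 13 fell and none rose, 24 had slopes below 0, and the median slope was -0.41 log2 per step, against 0.0161 over all genes. Pnpla3, a lipid droplet protein that acts on triglycerides and is induced by SREBP-1c, had the largest slope of all tested probe sets, up or down. Its log2 signal was 7.98, 7.38, 8.69, 8.05 and 8.74 in the rats on casein, 6.45, 7.05, 7.74, 2.85 and 6.76 on the 3:1 diet and 2.33, 1.93, 5.44, 1.61 and 4.37 on the 1:1 diet. All 1:1 rats lay below all casein rats, while replicate 4 of the 3:1 diet lay among the 1:1 rats and far below its own group. The slope was -2.52 per step (SE 0.40, limma adjusted p = 0.00382), a level 32.8-fold lower on the 1:1 diet than on casein. Replicates 1, 2 and 4 of the 1:1 diet lay below the medians of their arrays (2.55, 2.57 and 2.49), so this fold rests partly on dim signals. The other 2 probe sets of Pnpla3 fell too, with slopes of -2.44 and -1.72. Elovl6, the elongase that turns palmitate into stearate, had 3.85, 4.80, 5.53, 5.12 and 4.88 on casein, 3.48, 3.23, 3.95, 1.59 and 2.84 on the 3:1 diet and 1.81, 1.55, 3.11, 2.57 and 2.21 on the 1:1 diet. The casein and 1:1 rats did not overlap, and replicate 4 was again the lowest of the 3:1 group. Its slope was -1.29 (SE 0.19, adjusted p = 0.00279), with 70.3% of the change made in the first step.

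Further members of the fat synthesis list fell. Pgd, the 6-phosphogluconate dehydrogenase that makes NADPH, had 5.78, 6.28, 6.36, 6.45 and 6.29 on casein, 5.40, 5.40, 5.81, 4.57 and 5.34 on the 3:1 diet and 4.72, 4.82, 5.35, 4.85 and 4.79 on the 1:1 diet. Only casein replicate 1 lay within the range of the 3:1 rats, and none of the casein rats within that of the 1:1 rats. The slope of Pgd was -0.66 (SE 0.093, adjusted p = 0.00169). Acss2, which makes acetyl-CoA from acetate, fell by 0.59 per step (SE 0.089, adjusted p = 0.00287), and Acacb, the acetyl-CoA carboxylase at the mitochondrial surface, by 0.44 (SE 0.068, adjusted p = 0.00291). Acaca, the cytosolic carboxylase, fell by 0.62 (adjusted p = 0.0121) on its brighter probe set, but the dimmer one had a slope of 0.0115 (adjusted p = 0.945). The desaturase Fads2 fell by 0.55 (adjusted p = 0.00802), and the citrate carrier Slc25a1 by 0.26 (adjusted p = 0.0130). In bulk liver, less of an RNA per cell and fewer cells that carry it cannot be told apart.

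Fasn, the fatty acid synthase, had 6.99, 7.50, 8.49, 7.95 and 7.87 on casein, 6.77, 6.62, 7.23, 4.33 and 6.76 on the 3:1 diet and 5.09, 4.69, 7.12, 5.26 and 5.58 on the 1:1 diet. Replicate 4 of the 3:1 diet was the lowest of all 15 rats and replicate 3 of the 1:1 diet lay within the casein range, so the groups overlapped. The slope was -1.11 (SE 0.24, adjusted p = 0.0255). The call ended without casein replicate 3, 4 or 5 or replicate 1, 2 or 4 of the 1:1 diet, with an adjusted p of up to 0.0769. Me1, the NADP malic enzyme, fell by 0.75 with 91.4% of the change in the first step. Acly, which cleaves citrate, Thrsp, a thyroid hormone responsive lipogenic protein, and the desaturase Fads1 fell by 0.78, 0.80 and 0.33. The calls for Me1, Acly, Thrsp and Fads1 ended in 7, 8, 8 and 8 of the 15 fits that leave out 1 array (called omissions below), with adjusted p of up to 0.0699, 0.108, 0.118 and 0.0998. The transcription factor Srebf1 had a slope of -0.53 (adjusted p = 0.0709) and did not pass. The stearoyl-CoA desaturase Scd had -0.30 (adjusted p = 0.0799), and Insig1, which holds SREBPs in the endoplasmic reticulum, -0.82 (adjusted p = 0.0844). The number of fallen genes was 8 without casein replicate 3, 4 or 5, without replicate 1, 2 or 4 of the 1:1 diet, or without both higher-floor arrays.

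**Figure D2:**
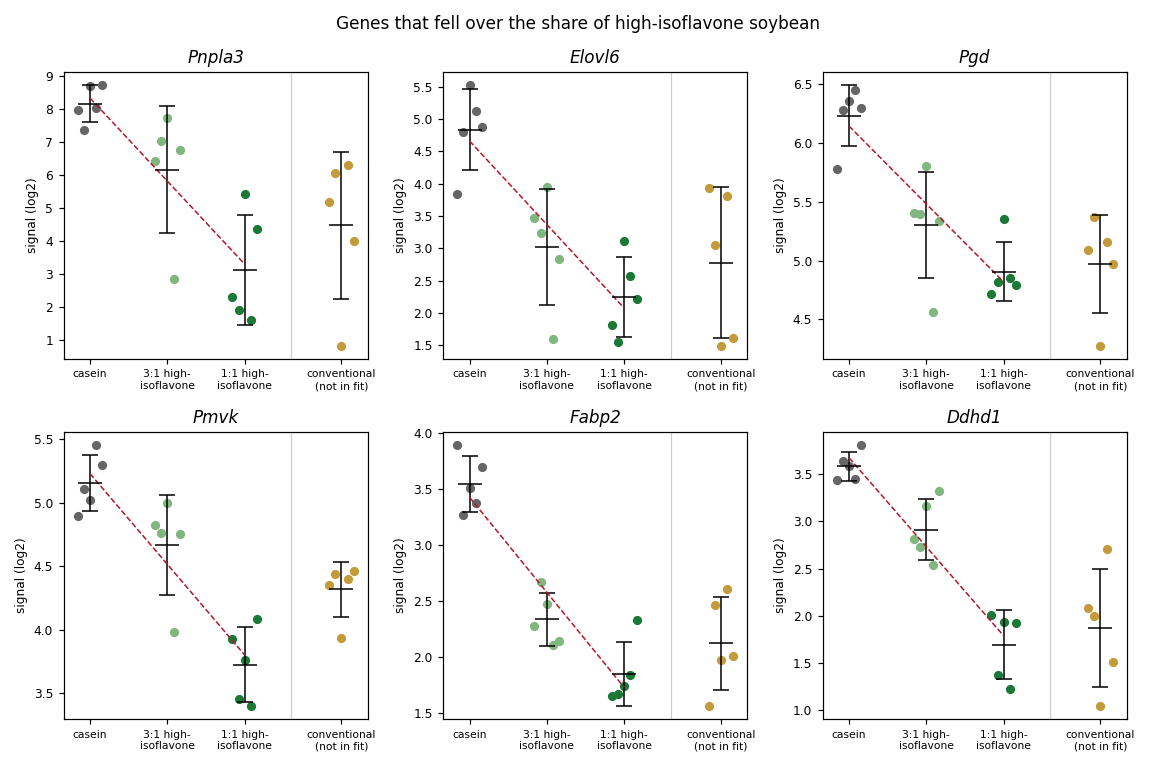
Log2 signal of 6 falling genes in each rat (points) with the group mean and SD (bars, 5 rats per diet), the fitted slope over the 3 diets of the trend (dashed) and, right of the grey line, the conventional soybean rats, which were not fitted. In all 6 genes the 1:1 rats lie below the casein rats, and in Pnpla3, Elovl6, Pgd and Pmvk 1 rat of the 3:1 diet (replicate 4) lies well below the other 4.

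Messenger RNAs of some cholesterol synthesis genes fell as well, by smaller steps. Of 19 measured genes of cholesterol synthesis and uptake 9 fell and none rose, all 19 slopes were below 0, and the median was -0.22. Pmvk, which phosphorylates phosphomevalonate, had 4.90, 5.11, 5.02, 5.45 and 5.29 on casein, 4.82, 4.76, 4.998, 3.98 and 4.76 on the 3:1 diet and 3.93, 3.46, 3.76, 3.40 and 4.09 on the 1:1 diet. The 1:1 rats lay apart from the casein rats, and the 3:1 rats overlapped both neighbours. Its slope was -0.71 (SE 0.088, adjusted p = 0.000735), and only 34.4% of the change was made in the first step. Lss, the lanosterol synthase, had 4.28, 4.79, 4.11, 5.07 and 4.31 on casein, 3.91, 3.82, 3.34, 2.90 and 4.02 on the 3:1 diet and 3.75, 3.59, 2.92, 2.06 and 2.79 on the 1:1 diet. Here the casein rats lay above all 3:1 and all 1:1 rats, while those of the soybean diets overlapped. The slope of Lss was -0.75 (SE 0.14, adjusted p = 0.0132), and its dimmer probe set had -0.54.

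Among the other called members of this list, the sterol reductase Tm7sf2 fell by 0.46 per step (SE 0.070, adjusted p = 0.00279), with 79.1% in the first step. Cyp51, the lanosterol demethylase, fell by 0.29 (SE 0.049, adjusted p = 0.00643), with 40.5% in the first step. Its other probe set fell by 0.27 (adjusted p = 0.0232) with only 5.8% in the first step, so the shape differed between probe sets. Acat2, the cytosolic thiolase that joins acetyl-CoA units, fell by 0.62 (adjusted p = 0.0223), a call lost without casein replicate 2 or 4 or replicate 2 or 4 of the 1:1 diet, at up to 0.0655. Mvd, Fdps, Sc5d and Nsdhl fell by 0.49, 0.36, 0.29 and 0.17. They are enzymes that make isopentenyl diphosphate, join isoprene units and finish the sterol ring. Their calls ended in 6, 6, 7 and 12 of the 15 omissions, with adjusted p of up to 0.1, 0.0831, 0.0707 and 0.123. That of Nsdhl was 0.0669 after quantile normalization. The number of fallen cholesterol genes was 5 without casein replicate 2, 3 or 5 and 4 without casein replicate 4, without replicate 2 or 4 of the 1:1 diet, or without both higher-floor arrays.

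The starts of Pgd and Lss are printed because both genes fell and both carry a CCAAT box, the letters bound by NF-Y, a factor that works beside SREBPs at lipid genes. The windows run from 250 bases before to 50 after the start of the gene in RefSeq's rat assembly GRCr8, on the gene's own strand. Capitals mark the match, which here reads ATTGG because CCAAT lies on the other strand, at -31 in Pgd and -82 in Lss counted from the start.
Pgd, chr5:164881980-164882279, minus strand: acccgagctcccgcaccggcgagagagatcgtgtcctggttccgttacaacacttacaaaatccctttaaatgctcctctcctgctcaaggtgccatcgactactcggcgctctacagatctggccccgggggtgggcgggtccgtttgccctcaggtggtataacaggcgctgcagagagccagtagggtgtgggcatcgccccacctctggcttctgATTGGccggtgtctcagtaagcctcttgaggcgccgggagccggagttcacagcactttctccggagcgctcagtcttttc
Lss, chr20:12118181-12118480, minus strand: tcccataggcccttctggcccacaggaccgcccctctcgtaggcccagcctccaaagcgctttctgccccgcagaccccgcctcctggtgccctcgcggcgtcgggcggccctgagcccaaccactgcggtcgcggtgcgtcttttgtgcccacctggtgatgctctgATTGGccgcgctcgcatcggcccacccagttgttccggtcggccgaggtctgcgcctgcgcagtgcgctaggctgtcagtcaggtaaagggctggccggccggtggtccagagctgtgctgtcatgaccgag
CCAAT, searched on both strands, stood in 8 of the 10 fallen fat synthesis genes with a RefSeq window and in 6 of the 8 fallen cholesterol genes, against 37.5% of all 33469 windows. The sterol regulatory element TCACNCCAC stood in none of these 18 windows and in 1.12% of all. No match overlapped a match of another motif searched. Such a match is a description of the letters and no evidence of binding.

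Outside these lists, several of the named fallen genes handle fatty acids. Fabp2, the intestinal type of fatty acid binding protein, had 3.89, 3.27, 3.51, 3.38 and 3.70 on casein, 2.28, 2.67, 2.47, 2.11 and 2.15 on the 3:1 diet and 1.65, 1.67, 1.74, 1.84 and 2.33 on the 1:1 diet. All casein rats lay above all rats of both soybean diets, and 1 rat of the 1:1 diet lay within the 3:1 range. The slope was -0.85 (SE 0.077, adjusted p = 4.80e-05), 71.3% of it in the first step. Ddhd1, a phospholipase A1 that acts on phosphatidic acid, had 3.44, 3.64, 3.58, 3.45 and 3.81 on casein, 2.82, 2.73, 3.16, 2.54 and 3.32 on the 3:1 diet and 2.01, 1.37, 1.94, 1.22 and 1.93 on the 1:1 diet. The rats of all 3 diets lay in order with no overlap. The slope was -0.95 (SE 0.086, adjusted p = 4.80e-05), and 35.5% of the change was made in the first step. Such full ordering was seen in 4 probe sets, all falling (0.0144% of those tested), and in none rising. They belong to Ddhd1, to Sult4a1, a sulfotransferase-like protein known from brain, to Slc25a41, a mitochondrial carrier of ATP and phosphate, and to 1 probe set with no symbol. Sult4a1 had 2.63, 3.20, 3.76, 3.78 and 3.40 on casein, 2.18, 2.46, 2.32, 2.09 and 2.40 on the 3:1 diet and 1.44, 2.02, 2.005, 1.72 and 1.73 on the 1:1 diet, in order without overlap, with a slope of -0.79 (SE 0.092, adjusted p = 0.000569). Slc25a41 had a slope of -0.30 (SE 0.045, adjusted p = 0.00241). For Fabp2, Ddhd1 and Sult4a1 all 1:1 rats lay below the medians of their arrays (2.45 to 2.57). The slopes and orderings of these genes therefore rest partly on dim signals.

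Fabp5, another fatty acid binding protein, had 6.71, 7.61, 6.85, 7.61 and 7.23 on casein, 5.77, 6.18, 6.67, 4.53 and 6.23 on the 3:1 diet and 4.43, 5.17, 5.34, 4.47 and 5.07 on the 1:1 diet. The casein rats stood above all others, and replicate 4 of the 3:1 diet lay among the 1:1 rats. The slope was -1.15 (SE 0.16, adjusted p = 0.00137), 4.95-fold lower on the 1:1 diet than on casein. Acsl5, a long-chain acyl-CoA synthetase, fell by 0.47 (SE 0.053, adjusted p = 0.000508), with 50.5% in the first step, and its other probe set by 0.48. Wfdc21, a small secreted protein with a whey acidic protein domain, fell by 0.94 (SE 0.12, adjusted p = 0.00105), and 91.5% of that lay in the first step. Commd6, a COMM domain protein, fell by 0.94 (SE 0.15, adjusted p = 0.00411). Aldh1b1, a mitochondrial aldehyde dehydrogenase, fell by 0.89 (SE 0.16, adjusted p = 0.0102). On the conventional soybean diet the mean levels were 2.12 for Fabp2, 1.87 for Ddhd1, 5.69 for Fabp5 and 4.68 for Wfdc21, against 3.55, 3.58, 7.21 and 6.46 on casein.

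Some small subunits of the respiratory chain fell. Of 22 measured subunits in the list 4 fell and none rose, with a list median of -0.064. The list leaves out some subunits, such as Cox7b, which fell by 0.63 (adjusted p = 0.000625), and Atp5mk, which fell by 0.40 (adjusted p = 0.00106). Cox6c, a subunit of cytochrome c oxidase, had 7.95, 8.01, 7.95, 7.92 and 7.87 on casein, 7.69, 7.79, 7.49, 7.30 and 7.21 on the 3:1 diet and 6.88, 6.87, 7.32, 7.05 and 7.32 on the 1:1 diet. The casein rats lay above both other groups. The slope was -0.43 (SE 0.057, adjusted p = 0.00128). Cox7c fell by 0.33 (adjusted p = 0.00998), and the complex I subunits Ndufa5 and Ndufa4 by 0.41 and 0.24 (adjusted p = 0.0130 and 0.0121). Without replicate 1 of all 3 diets, the adjusted p of Cox7c, Ndufa5 and Ndufa4 became 0.0512, 0.0598 and 0.0584. Cox7b2, an isoform of subunit 7b named for its small adjusted p, had 5.17, 5.43, 5.38, 5.40 and 5.20 on casein, 4.69, 4.76, 4.48, 4.42 and 4.22 on the 3:1 diet and 4.28, 4.15, 4.42, 4.16 and 4.37 on the 1:1 diet. The slope was -0.52 (SE 0.053, adjusted p = 0.000150), with 76.8% in the first step, and casein rats again lay above all others. For Cox7b2 the conventional soybean rats overlapped the casein rats, at a mean of 5.18 against 5.32. For Cox6c they lay below every casein rat, at 7.68 against 7.94, and overlapped the 3:1 rats. Neither difference was tested. Rps24, a ribosomal protein, was the only called one of 16 in its list and fell by 0.28 (adjusted p = 0.0151). Rpl26, outside that list, fell by 0.47 (adjusted p = 0.00356). Psma2 was the only called one of 23 listed proteasome subunits and fell by 0.28 (adjusted p = 0.0225). The call for Psma2 ended without casein replicate 2 or 4 or replicate 2 of the 1:1 diet, at up to 0.0683.

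Rising genes were spread over several functions. Gclm, the modifier subunit of glutamate-cysteine ligase, which limits glutathione synthesis, had 3.65, 4.09, 3.91, 3.48 and 3.91 on casein, 4.31, 4.77, 4.65, 4.96 and 4.24 on the 3:1 diet and 4.70, 5.17, 4.63, 5.61 and 4.89 on the 1:1 diet. All casein rats lay below the rats of both other diets, and the 3:1 and 1:1 rats overlapped. The slope was 0.59 (SE 0.091, adjusted p = 0.00291), 2.28-fold higher on the 1:1 diet than on casein. Of the 21 measured targets of the antioxidant factor NRF2 and glutathione genes, 2 rose and 1 fell. Osgin1, an oxidative stress induced growth inhibitor, rose by 0.60 (adjusted p = 0.0487), a call lost in 11 of 15 omissions (adjusted p up to 0.132) and with arrays centred and scaled (0.0662). Hmox1, the heme oxygenase, fell by 0.26 (adjusted p = 0.0363), a call lost in 7 of 15 (up to 0.0945). Gclc, the catalytic partner of Gclm, had a slope of -0.0057 (adjusted p = 0.976), and Nqo1 had -0.069 (adjusted p = 0.925). Gclm is shown because its window holds the core of an antioxidant response element, TGACNNNGC on the other strand, in capitals, at -172 from the start; 12.1% of all windows hold one.
Gclm, chr2:213031885-213032184, plus strand: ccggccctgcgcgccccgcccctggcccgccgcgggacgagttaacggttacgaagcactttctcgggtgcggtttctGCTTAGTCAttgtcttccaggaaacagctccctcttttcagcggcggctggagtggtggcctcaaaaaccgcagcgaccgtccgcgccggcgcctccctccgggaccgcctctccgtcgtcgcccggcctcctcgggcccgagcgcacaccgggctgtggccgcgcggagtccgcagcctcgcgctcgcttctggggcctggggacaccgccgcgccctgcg

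Metallothioneins, small cysteine-rich proteins that bind zinc and copper, rose, with the larger part of the change in the second step. Mt2A had 2.995, 3.48, 2.88, 3.29 and 2.40 on casein, 2.68, 3.58, 2.91, 4.14 and 3.15 on the 3:1 diet and 4.44, 5.67, 3.66, 4.75 and 5.27 on the 1:1 diet. The 3:1 rats lay with the casein rats apart from replicate 4 and, by a little, replicate 2, while all 1:1 rats lay above casein. The slope was 0.87 (SE 0.16, adjusted p = 0.0121), with only 16.1% of the change in the first step. Mt1 had 3.42, 2.75, 2.69, 3.002 and 3.02 on casein, 2.91, 3.73, 3.003, 4.37 and 3.27 on the 3:1 diet and 4.36, 4.94, 3.53, 4.14 and 4.20 on the 1:1 diet. Its slope was 0.63 (SE 0.13, adjusted p = 0.0215), with 38.4% in the first step, and the call ended without casein replicate 2 or 4 or replicate 2 of the 1:1 diet (up to 0.0638). These 2 were the called ones of 8 measured genes of metal handling. With all 20 arrays in the fit the adjusted p of Mt2A was 0.0868. Their windows are shown for TGCACNC, the only form of the metal response element core that was searched, on both strands and printed in capitals. It stood 3 times in Mt1 (-176, -151 and -69) and 2 times in Mt2A (-220 and -111), and at least once in 12.2% of all windows.
Mt1, chr19:10832926-10833225, minus strand: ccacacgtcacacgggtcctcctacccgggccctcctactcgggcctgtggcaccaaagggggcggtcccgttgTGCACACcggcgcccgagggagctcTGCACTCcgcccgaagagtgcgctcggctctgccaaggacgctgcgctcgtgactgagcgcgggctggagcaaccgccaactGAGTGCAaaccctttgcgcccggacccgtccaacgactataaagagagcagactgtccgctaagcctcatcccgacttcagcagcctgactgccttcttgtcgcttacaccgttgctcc
Mt2A, chr19:10838659-10838958, minus strand: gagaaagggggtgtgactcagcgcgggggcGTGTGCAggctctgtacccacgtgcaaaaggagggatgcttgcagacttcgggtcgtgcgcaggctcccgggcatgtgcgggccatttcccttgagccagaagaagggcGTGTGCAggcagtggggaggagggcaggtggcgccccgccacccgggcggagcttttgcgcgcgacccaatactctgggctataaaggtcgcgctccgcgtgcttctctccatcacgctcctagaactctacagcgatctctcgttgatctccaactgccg

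Drug-handling genes rose in part. Of 15 measured genes in the list of the receptors PXR and CAR and their targets 3 rose and none fell. Nr1i3, which encodes CAR itself, had 0.99, 2.11, 1.40, 1.69 and 1.92 on casein, 2.29, 1.95, 1.28, 2.28 and 1.18 on the 3:1 diet and 3.03, 3.01, 2.77, 2.58 and 2.74 on the 1:1 diet. The 1:1 rats lay above all others, while casein and 3:1 rats overlapped, so 14.2% of the change was made in the first step. The slope was 0.60 (SE 0.12, adjusted p = 0.0132). On casein Nr1i3 was dim, below the array medians of 2.43 to 2.49 in all rats. Cyp3a23-3a1, a cytochrome P450 of drug and steroid oxidation, rose by 0.40 (SE 0.076, adjusted p = 0.0130), with 69.3% in the first step, and its adjusted p was 0.0511 with arrays centred and scaled. The uptake carrier Slco1a4 rose by 0.68 (SE 0.16, adjusted p = 0.0340), a call lost in 6 of 15 omissions (up to 0.0916), with arrays centred and scaled (0.0509) and without both higher-floor arrays (0.105). Sult1c2a, a cytosolic sulfotransferase, rose by 0.82 (SE 0.16, adjusted p = 0.0149). Ugp2, which makes the UDP-glucose used for glycogen and glucuronides, rose by 0.62 (SE 0.12, adjusted p = 0.0133). The adjusted p without both higher-floor arrays was 0.0536 for Sult1c2a and 0.0507 for Ugp2. None of 8 targets of the dioxin receptor AhR was called in limma, with 1 at an unadjusted p under 0.05.

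The rising gene with the smallest adjusted p was Ddah1, the enzyme that breaks down asymmetric dimethylarginine, an inhibitor of nitric oxide synthesis. It had 4.18, 4.22, 4.30, 4.22 and 4.10 on casein, 4.94, 4.74, 5.20, 5.09 and 4.54 on the 3:1 diet and 5.33, 5.11, 5.13, 5.09 and 5.31 on the 1:1 diet. The casein rats spanned only 4.10 to 4.30, below every rat of the 3:1 and 1:1 diets. The slope was 0.49 (SE 0.056, adjusted p = 0.000508), 1.99-fold higher on the 1:1 diet than on casein, with 70.5% in the first step. Sel1l, an adaptor for the removal of misfolded proteins from the endoplasmic reticulum, rose by 0.33 (SE 0.049, adjusted p = 0.00222), and Cnn3, an actin-binding calponin, by 0.37 (SE 0.056, adjusted p = 0.00291). Cnn3 made only 26.7% of its change in the first step. Cdcp1, a membrane protein with CUB domains, rose by 0.87 (SE 0.15, adjusted p = 0.00802), and Myo16, an unconventional myosin, by 0.76 (SE 0.15, adjusted p = 0.0178). The dimmer probe set of Cdcp1 had 0.15 (adjusted p = 0.259) and that of Myo16 0.11 (adjusted p = 0.533). The call for Myo16 ended without replicate 2 or 4 of the 1:1 diet (up to 0.0549).

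**Figure D3:**
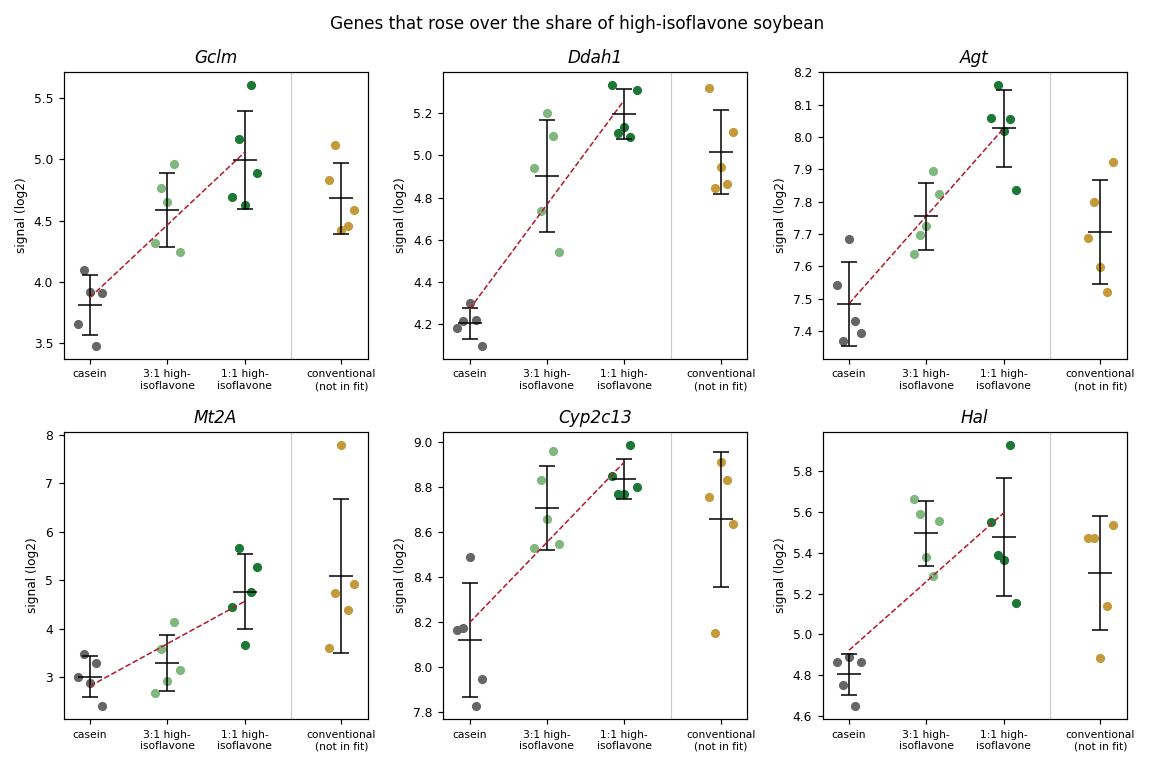
Log2 signal of 6 rising genes in each rat (points) with the group mean and SD (bars, 5 rats per diet), the fitted slope (dashed) and the conventional soybean rats right of the grey line, which were not fitted. Ddah1, Cyp2c13 and Hal made most of their change by the 3:1 diet, Agt moved by equal steps, and Mt2A moved mainly between the 3:1 and the 1:1 diet.

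Hormone-related lists held few calls. Of 13 measured genes in the list of estrogen receptors and estrogen-responsive genes 1 rose and 1 fell. The only receptor among them was Esr2, which encodes the beta type, with a slope of 0.099 (adjusted p = 0.668). Receptor alpha was not among the measured members. Agt, the angiotensinogen that liver secretes, had 7.54, 7.37, 7.68, 7.43 and 7.39 on casein, 7.64, 7.70, 7.72, 7.90 and 7.82 on the 3:1 diet and 8.06, 8.16, 8.02, 8.06 and 7.84 on the 1:1 diet. Casein and 1:1 rats did not overlap, and 49.9% of the change lay in the first step. The slope was 0.27 (SE 0.040, adjusted p = 0.00257), and 0.0644 was the adjusted p with arrays centred and scaled. Ctsd, the lysosomal protease cathepsin D, fell by 0.22 (adjusted p = 0.0340), a call lost in 7 of 15 omissions (up to 0.0879). On the conventional soybean diet the mean of Agt was 7.71, against 7.48 on casein.

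Of 10 measured genes that are higher in male than in female rat liver 4 rose and none fell, and the list median was 0.26. Cyp2c13, a male-predominant cytochrome P450, had 8.17, 8.18, 8.49, 7.83 and 7.95 on casein, 8.53, 8.83, 8.66, 8.96 and 8.55 on the 3:1 diet and 8.85, 8.77, 8.77, 8.99 and 8.80 on the 1:1 diet. Casein rats lay below all 3:1 and 1:1 rats. The slope was 0.36 (SE 0.055, adjusted p = 0.00317), with 81.9% in the first step. Car3, the carbonic anhydrase of muscle and male liver, rose by 0.52 (SE 0.088, adjusted p = 0.00679), with 87.5% in the first step, and its adjusted p was 0.0807 with arrays centred and scaled. Mup5, a major urinary protein, and Stac3 rose by 0.27 and 0.42, with 98.5% and 90.9% in the first step. Their calls ended in 6 and 9 of 15 omissions (up to 0.0761 and 0.112). With arrays centred and scaled their adjusted p was 0.202 and 0.143, so that 3 of the 4 rises ended in that setting. Cyp2c11, the main male P450, had a slope of -0.068 (adjusted p = 0.620). None of 9 female-predominant genes and none of 15 genes of the growth hormone and IGF axis was called, with 0 and 1 at an unadjusted p under 0.05. Both called members of 10 thyroid hormone responsive genes, Me1 and Thrsp, are also in the fat synthesis list.

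Amino acid and glucose metabolism gave scattered calls. Hal, the histidine ammonia-lyase that begins histidine breakdown, had 4.87, 4.75, 4.89, 4.65 and 4.86 on casein, 5.67, 5.59, 5.38, 5.29 and 5.56 on the 3:1 diet and 5.55, 5.39, 5.37, 5.93 and 5.15 on the 1:1 diet. All casein rats lay below all 3:1 and 1:1 rats, and those overlapped. The slope was 0.34 (SE 0.061, adjusted p = 0.00964), and 103% of the change had been made on the 3:1 diet. Tat, the tyrosine aminotransferase, showed the other shape, with 5.03, 4.27, 4.80, 5.16 and 5.47 on casein, 5.37, 4.20, 5.004, 4.72 and 4.79 on the 3:1 diet and 3.92, 3.49, 4.40, 3.002 and 3.67 on the 1:1 diet. Casein and 3:1 rats covered nearly the same range, and 1 rat of the 1:1 diet lay within it. The slope of Tat was -0.62 (SE 0.13, adjusted p = 0.0186), with 10.4% in the first step. The call ended without casein replicate 4 or 5 or replicate 2 or 4 of the 1:1 diet (up to 0.0553). Bckdk, the kinase that switches off branched-chain amino acid breakdown, fell by 0.37 (adjusted p = 0.0230), a call lost without casein replicate 4 or replicate 2 or 4 of the 1:1 diet (up to 0.0715). These 3 were the called ones of 34 genes of amino acid breakdown and the urea cycle.

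Of 21 genes of glucose metabolism 2 rose, Ugp2 and the glucose-6-phosphate carrier Slc37a4 (0.18, adjusted p = 0.0270), and 2 fell. Pklr, the pyruvate kinase of liver and the last step of glycolysis, fell by 0.40 (SE 0.075, adjusted p = 0.0108), and its other probe set by 0.59. Irs3, an insulin receptor substrate, fell by 1.11 (SE 0.23, adjusted p = 0.0195), a call lost without casein replicate 5 or replicate 2 or 4 of the 1:1 diet (up to 0.0531). The call for Slc37a4 ended in 6 of 15 omissions (up to 0.0769), with arrays centred and scaled (0.213), without replicate 1 of all 3 diets (0.0657) and without both higher-floor arrays (0.0567).

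Bile acid and lipoprotein lists held few calls. Of 16 genes of bile acid synthesis and sterol export 2 rose, and 5 had an unadjusted p under 0.05. Baat, which joins bile acids to taurine or glycine, rose by 0.24 (adjusted p = 0.0255), all of it in the first step, and Abcb4, the phospholipid exporter of the bile canaliculus, by 0.36 (adjusted p = 0.0488). Their calls ended in 6 and 10 of 15 omissions (up to 0.0708 and 0.124). With arrays centred and scaled the adjusted p was 0.269 for Baat and 0.0881 for Abcb4, and that of Abcb4 was 0.0853 after quantile normalization. Cyp7a1, the rate-limiting enzyme of bile acid synthesis, had 0.13 (adjusted p = 0.801). Lipc, the hepatic lipase, was the only called one of 16 lipoprotein genes and fell by 0.23 (adjusted p = 0.0363), a call lost in 7 of 15 omissions (up to 0.0810), while 7 had an unadjusted p under 0.05. Fatty acid oxidation and ketogenesis had no call among 25 genes in limma, with 6 at an unadjusted p under 0.05 and a median slope of 0.027. The unadjusted p was under 0.05 in 17.5% of all genes.

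Further lists without a call in limma are given with their number at an unadjusted p under 0.05. These were methionine and transsulfuration (8 of 14), the amino acid response (3 of 22), the circadian clock (3 of 16), the cell cycle (7 of 23), the interferon response (6 of 22) and genes of the pericentral zone (4 of 12). Members were counted by their brightest probe set. Stat2, of the interferon list, was called on its other probe set (slope -0.28, adjusted p = 0.0437) but not on the brightest (-0.21, adjusted p = 0.167). In the endoplasmic reticulum stress response Sel1l rose and Edem1 fell by 0.31 (adjusted p = 0.0494) among 20 genes. Edem1 lost its call in 13 of 15 omissions (up to 0.124), and its other probe sets did not pass. Of 13 periportal genes Hal and Pigr, the carrier of immunoglobulin A, rose. Pigr had a slope of 0.17 (adjusted p = 0.0207) and an adjusted p of 0.590 with arrays centred and scaled. It lost its call without replicate 4 of the 1:1 diet (0.0506).

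**Figure D4:**
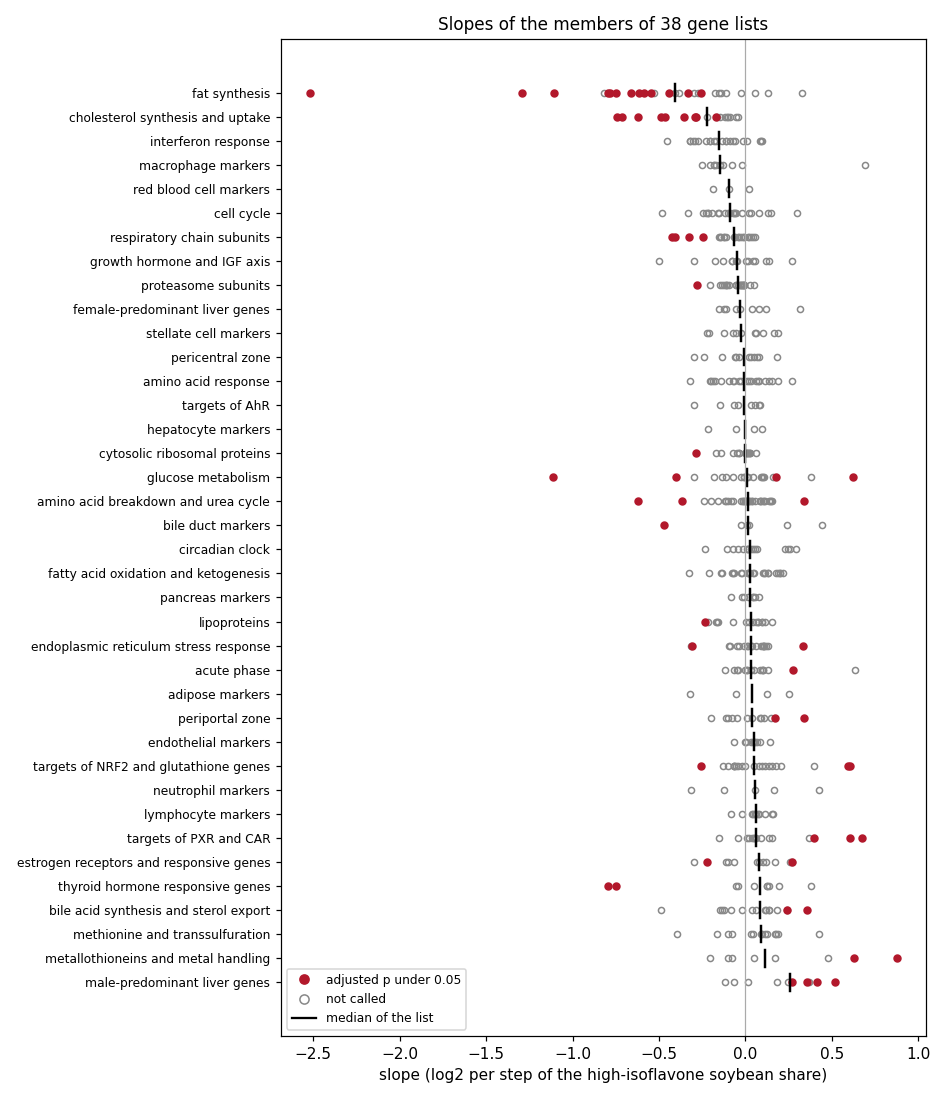
Slopes (log2 per step, x axis) of the measured members of 38 gene lists, ordered down the page by the list's median (black bar). Filled red points passed an adjusted p under 0.05. The lists of fat synthesis (median -0.41) and of cholesterol synthesis and uptake (-0.22) lie furthest below 0, and that of male-predominant liver genes (0.26) furthest above.

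Markers of other cells in liver were mostly not called. Of 11 macrophage markers 10 had slopes below 0 (median -0.15), none was called in limma, and 7 had an unadjusted p under 0.05. Over all genes, 56.7% of slopes lay above 0, and 17.5% had an unadjusted p under 0.05. The 1 macrophage marker with a slope above 0 was Cd14, at 0.689 (adjusted p = 0.1065), the largest slope of the list in size. Clec4f, the lectin of Kupffer cells, had -0.25 (adjusted p = 0.0669). The summed macrophage marker signal had medians of 313 on casein, 299 on the 3:1 and 285 on the 1:1 diet (linear units), with ranges of 241 to 371, 270 to 327 and 228 to 301, and no marker was at 0. The interferon response list, whose genes are strong in immune cells, had 18 of 22 slopes below 0, and the part of macrophages in it was not tested. Epcam, an epithelial adhesion protein, was the only called one of 6 bile duct markers and fell by 0.47 (SE 0.075, adjusted p = 0.00381). Of the 6, 4 had slopes above 0, among them Krt19 (0.44, adjusted p = 0.163) and Spp1 (0.24, adjusted p = 0.157). The summed bile duct signal had medians of 30.4, 31.3 and 30.9. No marker was called in limma among 4 of hepatocytes, 10 of endothelium, 11 of stellate cells, 12 of lymphocytes, 5 of neutrophils, 8 of pancreas, 3 of red blood cells and 4 of fat tissue. At an unadjusted p under 0.05 their numbers were 2, 0, 2, 0, 3, 0, 1 and 3.

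Departures from the straight line were measured less precisely than slopes, with an SE for Agt of 0.070 against 0.040. A gene without a call need not have moved by equal steps. The departure, the second step minus the first over 2, was called in no probe set by limma, with 1245 (4.49%) at an unadjusted p under 0.05. Among the 579 called for the slope that was 44 (7.6%), 34 of them with the larger first step and 10 with the larger second. The smallest p belonged to Ephx2, the soluble epoxide hydrolase that breaks down epoxides of fatty acids. It had 5.59, 5.85, 5.29, 4.64 and 5.11 on casein, 1.74, 2.17, 2.43, 2.04 and 4.82 on the 3:1 diet and 4.76, 4.90, 5.27, 4.68 and 5.97 on the 1:1 diet. The 3:1 rats lay far below both other groups except for replicate 5, and casein and 1:1 rats overlapped widely. The departure was 2.57 log2 (SE 0.38, adjusted p = 0.0929), and the slope -0.088 (adjusted p = 0.890). The adjusted p of the departure was 7.88e-06 without replicate 5 of the 3:1 diet, the rat apart from its group, and between 0.106 and 0.653 without any other single array. It was 0.704 without replicate 1 of all 3 diets and 0.9985 without both higher-floor arrays. The conventional soybean rats had 4.62, 4.15, 5.30, 2.03 and 4.23, with replicate 4 as low as the 3:1 rats.

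The next smallest p were those of Tpm1 and Acsf2, neither of them near the threshold. Tpm1, a tropomyosin of the actin filament, had 3.58, 3.60, 3.62, 3.45 and 3.44 on casein, 3.90, 4.07, 3.81, 3.86 and 3.70 on the 3:1 diet and 3.47, 3.31, 3.28, 3.21 and 3.68 on the 1:1 diet, so that the 3:1 rats stood above all others. Its departure was -0.40 (SE 0.088, unadjusted p = 0.000245, adjusted p = 0.9997), on 1 of 7 probe sets. Acsf2, a mitochondrial acyl-CoA synthetase, had a departure of 0.78 (SE 0.18, unadjusted p = 0.000480, adjusted p = 0.9997). Orm1, an acute phase glycoprotein and the 1 called gene among 17 of that list, had 8.18, 8.05, 7.94, 7.97 and 8.10 on casein, 7.92, 7.93, 8.21, 7.39 and 7.82 on the 3:1 diet and 8.28, 9.01, 8.77, 8.55 and 8.40 on the 1:1 diet. The 1:1 rats lay above all others, and the first step ran downwards, at -34.6% of the whole change. Its slope was 0.28 (SE 0.070, adjusted p = 0.0485). Orm1 lost its call in 11 of 15 omissions (up to 0.127) and in 7 of 10 other settings, among them arrays centred and scaled (0.264), a straight-line fit (0.130), quantile normalization (0.0719) and all 20 arrays (0.0694).

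**Figure D5:**
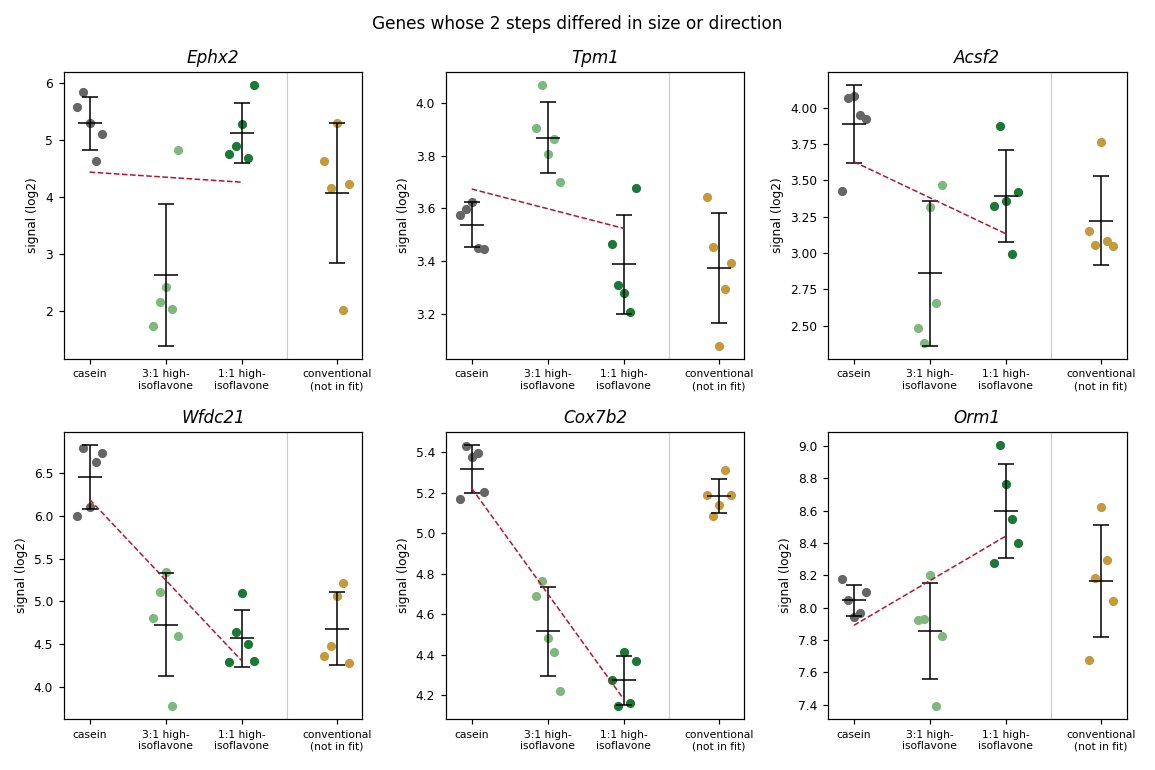
Log2 signal of 6 genes in each rat (points) with the group mean and SD (bars, 5 rats per diet), the fitted slope (dashed) and the conventional soybean rats right of the grey line, which were not fitted. Ephx2 and Acsf2 dip on the 3:1 diet, Tpm1 peaks there, Wfdc21 and Cox7b2 fall mainly in the first step, and Orm1 rises only in the second.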

How the data were processed

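Liver RNA was measured on Affymetrix rat 3′ arrays, 1 per rat. The authors deposited 1 table of log10 values for 20 arrays, normalized with the SuperNORM data service per the labels. The sources used here do not give its version, the probe summary or the centring. The log10 base was inferred from spike-in controls (slope 0.9965, SD 0.0242, 20 arrays), and values were multiplied by 3.3219 to log2. Of 31099 probe sets, 57 controls and 3342 without values (2 in both) were left out, which left 27702. Of these, 19157 had 1 gene symbol, 394 several and 8151 none listed in the platform annotation, covering 13468 genes. Each gene was represented by its brightest probe set, by the mean of the 20 arrays.

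The slope was fitted in limma 3.58.1 (R 4.3.3) with 1 mean per diet over the 15 arrays, eBayes with a trend of the spread, two-sided, and Benjamini-Hochberg adjustment over all 27702. All adjusted p and SE are from this fit unless a setting is named. Arrays have no read depth, and precision is limited by their number. The members and the 38 gene lists (538 of 641 symbols measured, 11 through a synonym) were chosen with earlier results of these data known. Named genes were the 8 largest slopes each way among genes above the median level, with means in order and casein and 1:1 rats apart, the 5 smallest adjusted p each way, up to 4 called members per list, the 3 smallest p of the departure, and genes with all rats in order. Other list members named with values were picked after those were seen. Promoter windows came from RefSeq tables. No coordinates of the arrays' own probes were used.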

Additional observations from a re-analysis of the deposited data

Results flagged for a closer look

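In 246 groups of 5 rats, 24 held a highest or lowest value whose gap to its nearest neighbour exceeded 0.710 of the group's range, Dixon's limit at this size. Chance flags about 1 in 20 such groups, and genes measured in the same rats are not independent.

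Replicate 4 of the 3:1 diet was the low one in 5 lipid genes. It had 5.86 for Acly, 4.33 for Fasn, 3.98 for Pmvk, 2.85 for Pnpla3 and 5.22 for Srebf1 (log2), against 7.65, 6.62, 4.76, 6.45 and 6.73 in the next rat of that diet. Replicate 1 on casein was the low one for Acaca (5.73), Commd6 (3.65), Me1 (4.82), Pgd (5.78), Sc5d (5.89) and Scd (9.36), where the next casein rat had 6.399, 5.07, 6.38, 6.28, 6.15 and 9.72. Replicate 3 of the 1:1 diet was the high one for Cyp51 (6.15), Nsdhl (7.14) and Pgd (5.35), where the next rat had 5.88, 6.89 and 4.85. What sets these rats apart was not tested.

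Replicate 5 of the 3:1 diet stood high for Ephx2 (4.82, next 2.43) and low for Cox7c (6.09, next 6.51), and replicate 3 stood high for Me1 (5.88, next 4.65). Replicate 2 of that diet stood low for Slc25a41 (2.65, next 2.78). Replicate 2 on casein stood high for Cnn3 (4.75, next 4.29). On the 1:1 diet, replicate 5 stood high for Fabp2 (2.33, next 1.84) and replicate 2 low for Rps24 (6.65, next 6.98). The array floor was high on casein replicate 5 (0.1344 log10) and on replicate 1 of the 3:1 diet (0.1419 log10). The 3′ minus 5′ signal of beta-actin was high on replicate 1 of the 3:1 diet (2.13 log2, next 1.56).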

How the results depend on the processing

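The slope called 579 probe sets, and none of them changed sign where it was called again. The count was 622 with a straight line on the dose, 613 with all 20 arrays, 449 without the trend of the spread, 721 with array weights and 596 without the dimmest probe sets. It was 230 with doses of 0, 1 and 1, which set casein against both high-isoflavone diets pooled. It was 2 with doses of 0, 0 and 1, which set casein and the 3:1 diet pooled against the 1:1 diet. Neither of these fits isolates a step. The count was 338 without replicate 1 of all 3 diets, 253 without the 2 higher-floor arrays, and 227 to 662 when 1 array was left out. The share of risers, 49.4%, was 37.1% (223 higher, 378 lower) after quantile normalization and 26.4% (158 higher, 440 lower) with arrays centred and scaled. The median slope of all probe sets was 0.000491 and -0.00866 in those 2 settings.

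The departure was called in 0 probe sets, in 1 under the replicate block and in 0 to 1 when 1 array was left out. The same settings were applied after seeing the data to the other counts. The first step called 3 probe sets, 11 with all 20 arrays, 15 with array weights, 17 under the replicate block, 11 without replicate 1, 0 without the higher-floor arrays and 1 to 8 with 1 array left out. The second step called 1, 0 with all 20 arrays, without the trend, without replicate 1 or without the higher-floor arrays, 2 under the block and 0 to 8 with 1 array left out. Full ordering of the rats was seen in 4 probe sets, 21 without replicate 1, 7 without the higher-floor arrays and 4 to 17 with 1 array left out. Fallen fat synthesis genes, 13, were 7 with doses of 0, 1 and 1 and 0 with doses of 0, 0 and 1. They were 8 without the higher-floor arrays and 8 to 15 with 1 array left out. Fallen cholesterol genes, 9, were 2, 1, 4 and 4 to 9 in the same settings. The slope of array medians, 0.0231, was 0.0267 without the higher-floor arrays (exact permutation p = 0.0497). The causes were not tested.

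Of 72 called named genes, 34 kept their call in every setting other than those that pool diets. Of the 72, 29 lost it in at least 1 of 15 omissions of an array and 36 in at least 1 of 10 other settings. The signal floor of casein replicate 5 and of replicate 1 of the 3:1 diet limits what dim probe sets can show. The replicate numbers were not taken as pairs, since 5 of 15 same-number correlations of deviations exceeded 0.1. Those of number 1 were 0.223, 0.292 and 0.328, the other 12 ran from -0.082 to 0.221, and 3 arrays correlated best with their own number. With the replicate number as a block, 580 probe sets were called for the slope, and Ephx2 for the departure (adjusted p = 0.0368).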
